A study of Mus musculus with 9 samples.

Results

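The kinesin superfamily was followed through heart development from birth to adulthood. Its members were taken by gene symbol: every array feature with 1 platform gene symbol made of Kif and a digit was kept, and a gene with several features was read from its brightest feature on average. This gave 44 features and 38 genes, out of 19938 genes in all. From general knowledge of their functions, 11 were placed among the mitotic kinesins, 15 among the transport kinesins and 6 among the kinesins of cilia and Hedgehog signalling, and 6 remained. The roles were set with earlier results of these data known, and the counts by role depend on this placement. The samples were total RNA of heart muscle from C57BL/6 mice, an inbred laboratory strain, with no treatment or engineered allele named in the labels. The 3 groups were hearts taken 24 hours, 7 days and 10 weeks after birth, with 3 Affymetrix Mouse Gene 1.0 ST arrays per age. An array reads a gene with a set of short probes and yields a log2 signal per feature, so that a difference of 1 is a 2-fold change.

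Kinesins are motor proteins that use ATP to move along microtubules or to take them apart. Mitotic kinesins build the spindle, move the chromosomes and organize the division furrow, and their genes are transcribed mainly in dividing cells. Transport kinesins carry mitochondria, vesicles and RNA in cells that do not divide. Mouse heart muscle cells still copy their DNA and divide around birth, go through a last round that leaves many of them with a pair of nuclei, and then largely leave the cell cycle.

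The labels do not say that replicates came from separate animals, so p-values measure the spread between these arrays only. A heart sample holds several cell types, and fewer cells of a type cannot be told apart from less RNA per cell. Markers of heart muscle cells were high on every array, with a mean log2 signal of the 8 markers between 12.29 and 12.40. Brown fat markers differed between the 7-day arrays, with means of 4.77, 8.0 and 6.32 on replicates 1, 2 and 3 against 4.67 to 5.08 elsewhere. The Y-linked gene Eif2s3y measured 7.07, 7.7 and 6.28 at 24 hours, 7.6, 6.26 and 6.06 at 7 days and 2.87 to 3.3 at 10 weeks. Xist measured 9.1, 8.3 and 9.37 at 24 hours, 8.26, 9.56 and 9.25 at 7 days and 8.69 to 8.97 at 10 weeks, so both signals were present on every younger array. At each younger age the array with the highest Eif2s3y had the lowest Xist. Sex composition cannot be told apart from age at 10 weeks, and whether it also differed between replicates of an age was not tested. After the arrays were centred on their medians, the share of called genes that were higher went from 52.3% to 41.6% in the first week and from 47.3% to 61.3% between 7 days and 10 weeks, and the median of all genes in that later step from 0.039 to 0.096.

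Over the family of 38, 1 gene rose and 4 fell between 24 hours and 7 days, 3 rose and 16 fell between 7 days and 10 weeks, and 3 rose and 15 fell from 24 hours to 10 weeks. Of all tested genes 10.1%, 35.9% and 40.1% were called in these comparisons. The arrays of the ages compared did not overlap for 8, 23 and 22 kinesins, against 27.1%, 44.3% and 48.2% of all tested genes. Through both steps 3 kinesins were called lower (Kif1a, Kif20a and Kif26b, against 2.09%) and 1 higher (Kif1c, against 2.03%). None rose and then fell, and none fell and then rose, patterns of 1.8% and 1.23% of all tested genes. A total of 18 were called in no comparison, with a background of 53.7%.

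The mitotic kinesins fell mainly after the first week. Between 7 days and 10 weeks 11 of 11 fell (limma's test across all genes, adjusted p under 0.05), from -3.46 for Kif11 to -0.86 for Kif14, with a median difference of -2.14 (log2), while 18.9% of all tested genes were called lower and their median difference was 0.04. Between 24 hours and 7 days 1 of 11 fell, Kif20a, with a median of -0.20 over the 11; 4.81% of all tested genes were called lower in that week. From 24 hours to 10 weeks again 11 of 11 fell, with a median of -2.14 and a range of -3.77 to -1.11, against 20.6% of all tested genes called lower. Kif2a and Kif2b, relatives of Kif2c, were placed among the remaining kinesins. They differed by -0.31 (called lower) and 0.02 (not called) between 7 days and 10 weeks. Between 7 days and 10 weeks the arrays of the 2 ages did not overlap for any of the 11, which held for 44.3% of all tested genes. At 10 weeks the means of the 11 lay between 3.72 and 4.80, below the median signal of all tested genes (5.57). How far this low end of the signal limits the size of each fall, and the ranks and shares taken from it, was not tested.

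The promoters of these genes are shown because the members moved together. Windows from 250 bases before to 50 after the annotated start were taken from RefSeq (GRCm38.p6), which held 10 of the mitotic and 11 of the transport genes. A gene with more than 1 annotated start can have more than 1 window. Searched on both strands, the letters TTTGAA lay in the windows of 9 of the 10 mitotic genes and in 1 of 13 windows of the transport genes, against 17.9% of all 32851 windows. The transport match lay in only 1 of the windows of Kif1a. The word lay also in 1 of 6 windows of the cilium kinesins and in 1 of 6 of the remaining ones, each set from 5 genes. TTTGAA is the core of the cell cycle genes homology region, a promoter element known for genes expressed in late cell cycle phases. On the strand of the gene alone the counts were 6 of 10 and 1 of 13, against 10.2% of all windows. In 7 of the 10 the whole word lay within 30 bases of the start, a range chosen after the positions were seen; this held for 0 of 13 transport windows and for 2.9% of all windows. Among the other kinesins Kif26b, which also fell, held it in that range. The stretches below run from 70 bases before to 30 after the start of those 7 genes, 5′ to 3′ on the strand of the gene. Capitals mark TTTGAA and CCAAT, the word known to bind the factor NF-Y, on either strand, where they read TTCAAA and ATTGG.
Kif11: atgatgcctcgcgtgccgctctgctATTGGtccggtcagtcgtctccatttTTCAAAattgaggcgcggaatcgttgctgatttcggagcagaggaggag
Kif22: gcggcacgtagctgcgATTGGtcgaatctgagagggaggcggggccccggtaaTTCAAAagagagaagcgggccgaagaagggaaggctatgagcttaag
Kif15: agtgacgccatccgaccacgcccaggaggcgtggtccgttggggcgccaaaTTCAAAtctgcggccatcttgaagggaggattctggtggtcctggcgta
Kif23: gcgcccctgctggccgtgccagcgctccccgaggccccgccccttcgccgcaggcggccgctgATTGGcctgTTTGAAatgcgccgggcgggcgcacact
Kif18b: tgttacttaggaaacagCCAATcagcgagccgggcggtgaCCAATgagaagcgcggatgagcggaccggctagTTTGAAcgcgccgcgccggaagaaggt
Kif20b: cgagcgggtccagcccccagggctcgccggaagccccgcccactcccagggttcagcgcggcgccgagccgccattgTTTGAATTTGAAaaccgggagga
Kif4: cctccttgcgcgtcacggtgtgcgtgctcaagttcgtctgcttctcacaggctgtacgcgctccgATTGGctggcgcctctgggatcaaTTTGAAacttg

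Their positions on GRCm38.p6 are chr19:37376312-37376411 (plus strand) for Kif11, chr7:127042391-127042490 (minus strand) for Kif22, chr9:122951011-122951110 (plus strand) for Kif15, chr9:61946770-61946869 (minus strand) for Kif23, chr11:102925095-102925194 (minus strand) for Kif18b, chr19:34922288-34922387 (plus strand) for Kif20b and chrX:100625995-100626094 (plus strand) for Kif4. In Kif20b 2 copies of the word follow each other directly. The windows of Kif2c and Kif14 hold the word further out, its first base at positions -103 and -228 from the start. Kif18a, the mitotic gene without it, is shown with the 3 transport kinesins that rose after the first week.
Kif18a: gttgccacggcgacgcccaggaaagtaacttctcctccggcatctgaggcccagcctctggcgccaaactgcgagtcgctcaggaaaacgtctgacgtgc
Kif21a: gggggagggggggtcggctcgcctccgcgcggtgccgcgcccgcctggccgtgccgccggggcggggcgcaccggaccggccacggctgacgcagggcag
Kif1c: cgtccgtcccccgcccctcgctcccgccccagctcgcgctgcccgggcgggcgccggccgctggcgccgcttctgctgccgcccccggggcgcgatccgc
Kif16b: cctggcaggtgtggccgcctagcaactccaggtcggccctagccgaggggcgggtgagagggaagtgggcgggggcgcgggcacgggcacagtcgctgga

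These lie at chr2:109280668-109280767 (plus strand) for Kif18a, chr15:91049922-91050021 (minus strand) for Kif21a, chr11:70700478-70700577 (plus strand) for Kif1c and chr2:142901435-142901534 (minus strand) for Kif16b. None of the 4 stretches holds either word. CCAAT lay in 6 of 10 mitotic windows and in 4 of 13 transport windows, against 37.4% of all windows, and CCAAT together with TTTGAA or its variant TTCGAA in 6 of 10 and 0 of 13, against 7.5%. At least 1 of the words TTGGCGC and TTCCCGC, which the E2F factors are known to bind, lay in 2 of 10 mitotic windows, those of Kif15 and Kif18a, in 0 of 13 transport windows and in 6.8% of all windows. Of the 6 cilium windows 3 held CCAAT, 2 the combination and 1 an E2F word. Of the 6 windows of the remaining kinesins 2 held CCAAT, 1 the combination and 1 an E2F word. TTGGCGC can share bases with CCAAT read on the other strand, and TTCGAA reads the same on both strands. TTCGAA alone lay in no mitotic or transport window, in 1 of 6 cilium windows and in 1.6% of all windows. A match is a description of these letters and not a measured binding site.

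**Figure D1:**
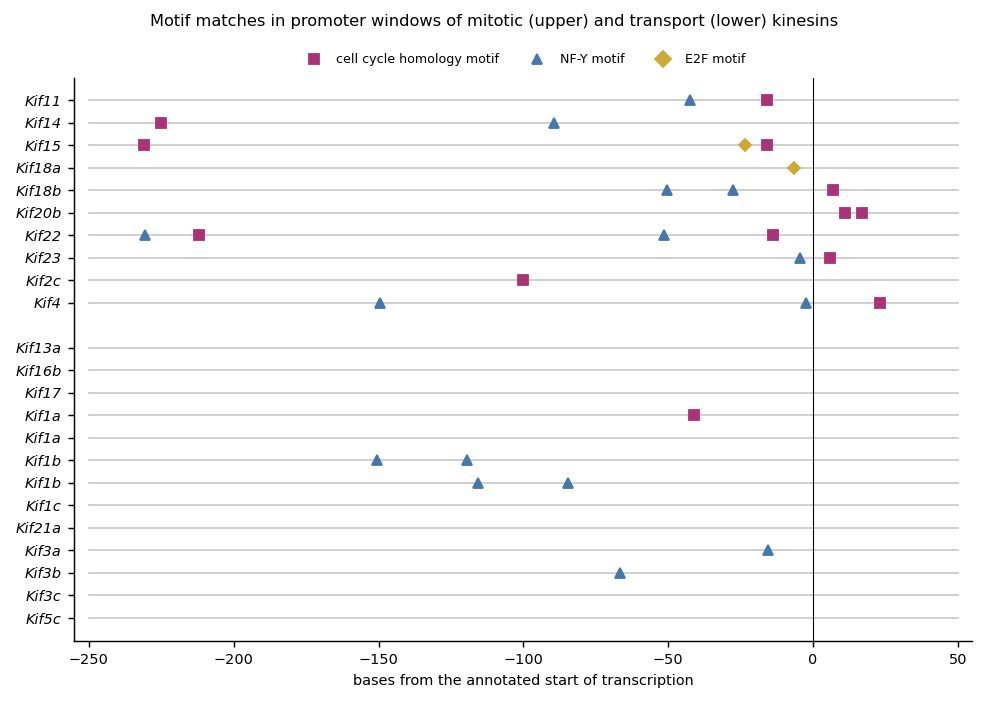
Positions of motif matches (both strands) relative to the annotated start, in bases, for each promoter window of the mitotic (upper) and transport (lower) kinesins; squares are the cell cycle homology motif (TTTGAA or its variant), triangles the NF-Y motif and diamonds the E2F motif. Squares are in 9 of 10 mitotic windows, most of them near the start, and in 1 of 13 transport windows.

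The spindle assembly motors come first. Kif11, which pushes the spindle poles apart and is needed for a bipolar spindle, measured 8.07, 7.91 and 8.48 at 24 hours, 7.88, 7.73 and 7.95 at 7 days and 4.11, 4.58 and 4.49 at 10 weeks. The first 2 ages overlap, and all 10-week arrays lie far below both. Between 7 days and 10 weeks Kif11 fell by 3.46 ± 0.15 (log2, SE; limma's test, adjusted p = 9.29e-08), the largest fall among the 38 genes, and its first-week difference of -0.30 did not pass (adjusted p = 0.313). Kif15, which can keep the spindle bipolar beside Kif11, measured 5.53, 5.52 and 5.72, then 5.58, 5.59 and 5.56, then 4.27, 4.11 and 4.22 at the same ages. It showed little difference in the first week (-0.01, 95% interval -0.18 to 0.15) and fell 2.60-fold afterwards.

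Motors that act on chromosomes and on microtubule ends fell in the same step. Kif4, a chromosome-bound motor that also works with Prc1 at the midzone of the spindle, went from 6.96 ± 0.21 (SD, n = 3) at 24 hours and 6.61 ± 0.05 at 7 days to 4.25 ± 0.21 at 10 weeks. Its arrays read 7.00, 6.74 and 7.15, then 6.66, 6.56 and 6.61, then 4.13, 4.49 and 4.13, so that no 7-day array reached the lowest 24-hour one, although the first-week difference of -0.35 did not pass the test (adjusted p = 0.103). Kif2c, which depolymerizes microtubules to correct faulty chromosome attachments, measured 6.92, 7.05 and 7.47, then 6.95, 6.85 and 7.06, then 4.16, 4.70 and 4.48. It fell by 2.5 ± 0.16 between 7 days and 10 weeks (adjusted p = 8.55e-07). Kif22, which pushes chromosome arms away from the poles, measured 6.48, 6.47 and 6.78, then 6.16, 6.21 and 6.28, then 4.65, 4.94 and 4.47. Here too the younger ages did not overlap, and the first-week difference of -0.36 missed the threshold (adjusted p = 0.0965; 0.0428 without 10-week replicate 2).

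The kinesin-8 motors Kif18a and Kif18b control the length of spindle microtubules at their plus ends. Kif18a, which steadies chromosomes at the metaphase plate, measured 5.58, 5.64 and 6.02, then 5.74, 5.54 and 5.80, then 4.71, 4.59 and 4.62. Kif18b measured 6.18, 6.17 and 6.56, then 6.26, 6.44 and 6.42, then 4.51, 4.53 and 4.71. Their first-week differences of -0.05 and 0.07 did not pass, and they fell by 1.05 and 1.79 afterwards, each to a separate adult range.

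The motors of the midzone and of cytokinesis make up the rest. Kif20a, which brings the chromosomal passenger complex to the spindle midzone, measured 7.96, 7.99 and 8.38 at 24 hours, 7.51, 7.44 and 7.56 at 7 days and 4.25, 4.60 and 4.34 at 10 weeks. All 3 ages are separate, and it was the 1 mitotic kinesin called in both steps, by -0.61 ± 0.12 in the first week (adjusted p = 0.0102) and by -3.11 ± 0.12 after it (adjusted p = 4.79e-08). Of all tested genes 2.09% were called lower in both steps. The first-week call held when any 1 array was left out and was lost without 7-day replicates 2 and 3 together, where the fat markers were raised and 1 array remains at 7 days (-0.60, adjusted p = 0.185).

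Kif23, which forms the centralspindlin complex with Racgap1, measured 7.52, 7.49 and 7.91, then 7.48, 7.46 and 7.59, then 4.59, 5.35 and 4.47. The younger ages overlap, and 10-week replicate 2 lies well above the other adult arrays. Kif20b, which acts late in cytokinesis, measured 6.37, 6.32 and 6.77, then 6.58, 6.39 and 6.47, then 4.14, 4.49 and 4.40, a fall of 2.14 after a first-week difference of -0.01. Kif14, which positions citron kinase at the midbody, measured 4.84, 4.69 and 5.07, then 4.51, 4.52 and 4.73, then 3.86, 3.57 and 3.73. Its means stayed below the median signal of all tested genes (5.57) at every age. A dimmer feature of the same gene, at 2.82 to 2.93 on all arrays, showed a difference of 0.02 between 24 hours and 10 weeks.

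**Figure D2:**
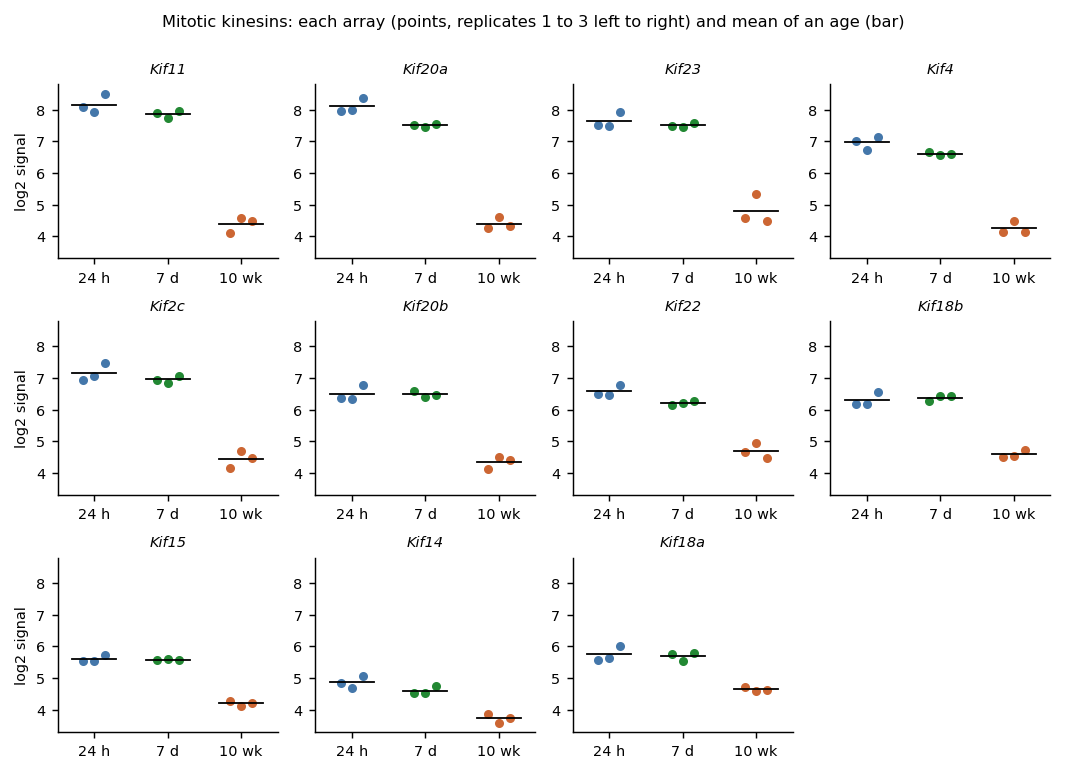
Log2 signal of the 11 mitotic kinesins on each array by age (points, replicates 1 to 3 from left to right; bars, mean of 3 arrays), on 1 common axis. In every panel the 10-week arrays lie below all younger arrays, while the 24-hour and 7-day arrays lie close together.

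How much larger the second step was than the first was tested as a contrast of its own, added after the data were seen; the 7-day arrays enter both steps, and the steps differ in length. The second step was lower than the first in 10 of 11 mitotic kinesins (limma's test, adjusted p under 0.05), by 3.16 for Kif11 and by 1.00 for Kif18a at the extremes among those called, against 10.7% of all tested genes. Kif14 did not pass (-0.59, adjusted p = 0.0600). The share of the whole fall from birth that had taken place by 7 days was 24.4% for Kif14, 19.2% for Kif22, 16.4% for Kif20a and 13% for Kif4, and at most 8.0% for the other 7.

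The mitotic kinesins also varied together among the 24-hour arrays. The highest of the 3 newborn values was that of replicate 3 for 11 of 11, as it was for 18 of 20 partner genes of mitosis and for 30.7% of all tested genes. The mean of the 11 on the newborn arrays was 6.59, 6.54 and 6.94. Without 24-hour replicate 3 their first-week median went from -0.20 to -0.03, and Kif20a still passed. At 7 days the means were 6.48, 6.43 and 6.55, and at 10 weeks 4.31, 4.54 and 4.37. The shared rank was weaker at 10 weeks, where replicate 2 held the highest value of 7 of 11 and the lowest of 3. That array held the highest adult value of 9 of 20 partner genes and of 31.4% of all tested genes. Transport kinesins did not share these ranks: 24-hour replicate 3 held the highest value of 6 of 15 and 10-week replicate 2 that of 3 of 15.

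Other genes of mitosis moved the same way. Of 20 partners of mitotic kinesins, 19 fell between 7 days and 10 weeks with a median of -2.18, beside 18.9% of all tested genes. In the first week 3 fell (Plk1, Tacc3 and Numa1), beside 4.81%. Numa1 passed narrowly (-0.18, adjusted p = 0.0497 in limma's test). With 1 array left out 1 to 5 partners fell in that week, beside 547 to 1156 of all tested genes. The largest differences between 7 days and 10 weeks were those of the midzone gene Prc1 (-3.86), the spindle gene Hmmr (-3.82), the proliferation marker Mki67 (-3.58) and the topoisomerase gene Top2a (-3.56). Racgap1, named here as the partner of Kif23 after its value was seen, differed by -2.63. Cenpe, a kinesin that links chromosomes to microtubules and whose symbol lies outside the family rule, went from 7.31 ± 0.19 and 6.90 ± 0.05 to 4.04 ± 0.08. Like Kif20a it was called in both steps, by -0.41 (adjusted p = 0.0194) and by -2.86. Kifc1 was not tested, because its feature also carries another symbol.

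Markers of other cell types moved over the same step. Of all tested genes 17.0% rose and 18.9% fell in it. Of 6 tested erythroid markers 3 fell between 7 days and 10 weeks, the heme synthesis gene Alas2 by 3.44, the red cell membrane genes Slc4a1 by 1.66 and Epb42 by 0.51. Their list mean was 5.08, 4.95 and 5.17 at 24 hours, 5.30, 5.20 and 5.36 at 7 days and 4.22, 4.69 and 4.23 at 10 weeks. The higher mean of 10-week replicate 2 came mostly from Alas2 (4.56, 7.12 and 4.25), and that array held the highest adult value of 3 markers and the lowest of the other 3. Of 7 fibroblast and 7 endothelial markers 5 each fell in that step, with medians of -0.94 and -0.35, 7 of 7 macrophage markers rose, and none of 8 heart muscle markers passed. Among 7 thymocyte markers 1 rose and 0 fell. The part of these cell types in the fall of the mitotic kinesins was not tested.

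**Figure D3:**
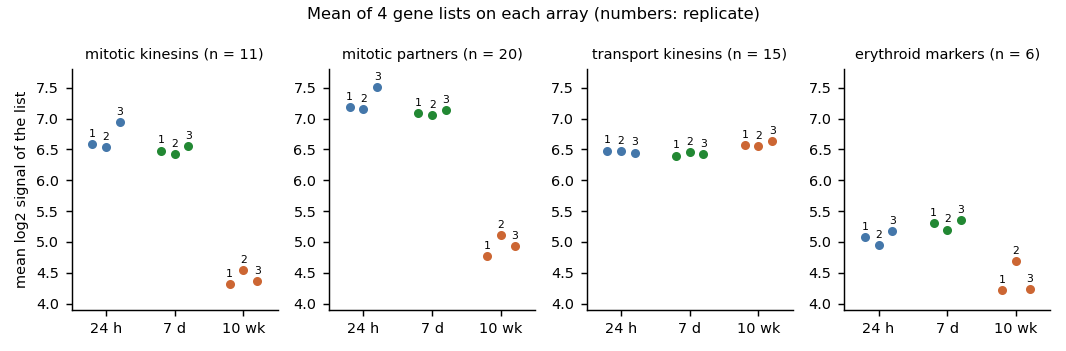
Mean log2 signal of the 11 mitotic kinesins, their 20 partners, the 15 transport kinesins and 6 erythroid markers on each array, by age, with the replicate number above each point. The mean of each mitotic list and of the erythroid markers is lowest at 10 weeks; the higher erythroid mean of replicate 2 there comes mostly from Alas2, and the transport kinesins lie between 6.40 and 6.64 throughout.

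The transport kinesins did not share a direction. Between 7 days and 10 weeks 3 of 15 rose (Kif21a, Kif1c and Kif16b) and 2 fell (Kif1a and Kif3b), shares of 20.0% and 13.3% beside 17.0% and 18.9% of all tested genes. From 24 hours to 10 weeks the same 5 genes were called in the same directions, beside 19.5% of all tested genes called higher and 20.6% called lower. In the first week 1 rose (Kif1c) and 2 fell (Kif1a and Kif13a), beside 5.27% and 4.81%. The count of risers in the second step was 6 with each array centred on its median and 5 with quantile normalization. The count over all 19938 tested genes also went up, from 3388 called higher to 5247 and 3688. The mean log2 signal of the 15 was 6.47 ± 0.02 at 24 hours, 6.43 ± 0.03 at 7 days and 6.59 ± 0.04 at 10 weeks (SD over 3 arrays). The mitotic mean minus the transport mean went from 0.22 ± 0.23 and 0.05 ± 0.08 to -2.18 ± 0.15.

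Kif21a, a kinesin-4 motor known from neurons for holding back microtubule growth at the cell cortex, measured 6.07, 6.04 and 6.10 at 24 hours, 5.94, 6.04 and 6.12 at 7 days and 7.13, 7.29 and 7.17 at 10 weeks. The younger arrays overlap and the adult arrays all lie above them. It rose 2.24-fold between 7 days and 10 weeks (difference 1.16 ± 0.07, adjusted p = 5.41e-07) and its first-week difference did not pass (-0.03, adjusted p = 0.872). Kif1c, a widely expressed vesicle carrier, measured 8.07, 8.16 and 8.24, then 8.39, 8.34 and 8.39, then 9.21, 9.14 and 9.15. The 3 ages are separate and rising, with a whole change of 1.01 (95% interval 0.89 to 1.14, adjusted p = 2.24e-07), and another feature of the gene rose by 1.21 over the same span.

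Kif1c was the 1 kinesin called higher in both steps, a pattern shown by 2.03% of all tested genes. Its small first-week rise of 0.22 (adjusted p = 0.0356) was lost without 24-hour replicate 1 or 2 or any of the 7-day replicates, with differences of 0.17 to 0.23 and adjusted p of 0.0607 to 0.129, and also with the replicate number as a block (adjusted p = 0.0641), with centred arrays (0.0663) and with the mean of its features (0.0635). Kif16b, which carries early endosomes, measured 7.77, 7.72 and 7.83, then 7.74, 7.63 and 7.72, then 8.12, 8.01 and 8.23. It rose by 0.42 ± 0.07 in the second step (adjusted p = 6.07e-04), and the adult arrays lie above all others. The second step exceeded the first, in the contrast described above, for Kif21a (by 1.20), Kif1c (by 0.58), Kif16b (by 0.49) and Kif13a (by 0.43), against 8.12% of all tested genes.

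Kif1a, the carrier of synaptic vesicle precursors in neurons, fell across both steps. Its arrays read 5.66, 5.61 and 5.55 at 24 hours, 5.24, 5.28 and 5.24 at 7 days and 4.59, 4.75 and 5.0 at 10 weeks, 3 separate ranges in falling order. The whole fall was 0.83 ± 0.09 (adjusted p = 4.28e-05). The first-week part of -0.35 (adjusted p = 0.0402) was lost on leaving out any younger array or 10-week replicate 2 (differences of -0.38 to -0.33, adjusted p of 0.0526 to 0.136) and with the replicate block (adjusted p = 0.0682). Without 7-day replicates 2 and 3 together the second-step fall of 0.47 was not called either (-0.46, adjusted p = 0.0695). Of 11 neuron markers 1 fell and 1 rose between 7 days and 10 weeks, Uchl1 by -1.06 and Stmn2 by 0.59, and their list mean lay between 4.41 and 4.72 on all arrays.

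Kif13a, which moves recycling endosomes, dipped at 7 days. It measured 8.12, 8.0 and 8.16, then 7.76, 7.81 and 7.83, then 7.94, 7.95 and 7.94, with 3 separate ranges. The first-week fall of 0.29 passed (adjusted p = 0.00898) and the later difference of 0.14 did not (adjusted p = 0.0734), though it did with arrays centred on their medians (0.20, adjusted p = 0.0166) and with quantile normalization (0.20, adjusted p = 0.0161). Without 7-day replicates 2 and 3 together the first-week fall was no longer called (-0.33, adjusted p = 0.102).

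The heterotrimeric kinesin-2 motor of Kif3a, Kif3b and the adaptor Kifap3 builds cilia and carries cargo. Kif3b measured 6.48, 6.39 and 6.47, then 6.37, 6.44 and 6.47, then 6.16, 6.14 and 6.22, a second-step fall of 0.26 (adjusted p = 0.00594; -0.20 and 0.162 without 7-day replicates 2 and 3 together). Kif3a measured 6.91, 6.88 and 6.83, then 6.85, 7.01 and 6.76, then 6.59, 6.71 and 6.80, and its second-step difference of -0.17 did not pass (adjusted p = 0.121). Kifap3 measured 6.81 ± 0.03, 6.71 ± 0.06 and 6.82 ± 0.08 and was not called in either step. Kif3b thus fell by a small amount, and the interval of Kif3a in that step, -0.35 to 0.00, holds a fall of the same size.

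Kif5b, the conventional kinesin heavy chain found in most tissues and a carrier of mitochondria, measured 9.54, 9.58 and 9.50 at 24 hours, 9.55, 9.53 and 9.61 at 7 days and 9.55, 9.57 and 9.74 at 10 weeks. The 3 ages overlap, and the difference from birth to adulthood was 0.08 with a 95% interval of -0.05 to 0.21. Kif1b, a motor of mitochondria and synaptic vesicle precursors, measured 8.58, 8.57 and 8.63, then 8.40, 8.57 and 8.47, then 8.59, 8.50 and 8.74. Its interval over the same span was -0.14 to 0.17, and no step was called, though the second one passed with arrays centred on their medians (0.19, adjusted p = 0.0481).

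The other transport kinesins, Kif3c, Kif5a, Kif5c, Kif13b, Kif17 and Kif21b, were not called in any comparison. Kif3c passed between 7 days and 10 weeks with centred arrays (0.29, adjusted p = 0.0207), quantile normalization (0.29, 0.0254), the replicate block (0.23, 0.0474) and only genes above the median signal (0.23, 0.042). Kif13b passed from 24 hours to 10 weeks with centred arrays (0.26, 0.0472), quantile normalization (0.28, 0.0403) and without 10-week replicate 2 (0.32, 0.029). Together with Kif1b, Kif3a and Kif5b they make 9 of 15 with no call, against 53.7% of all tested genes, and their intervals from 24 hours to 10 weeks ran from -0.35 to 0.45 at the outermost. Kif5a, Kif5c, Kif17 and Kif21b, known mainly from neurons, had means below the median signal of all genes at every age. Kif5c read 5.19 on 8 of 9 arrays, a repeated value; 6.4% of all tested genes held the same value on 5 or more arrays, among them also Kif17, Kif19a and Kif9.

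**Figure D4:**
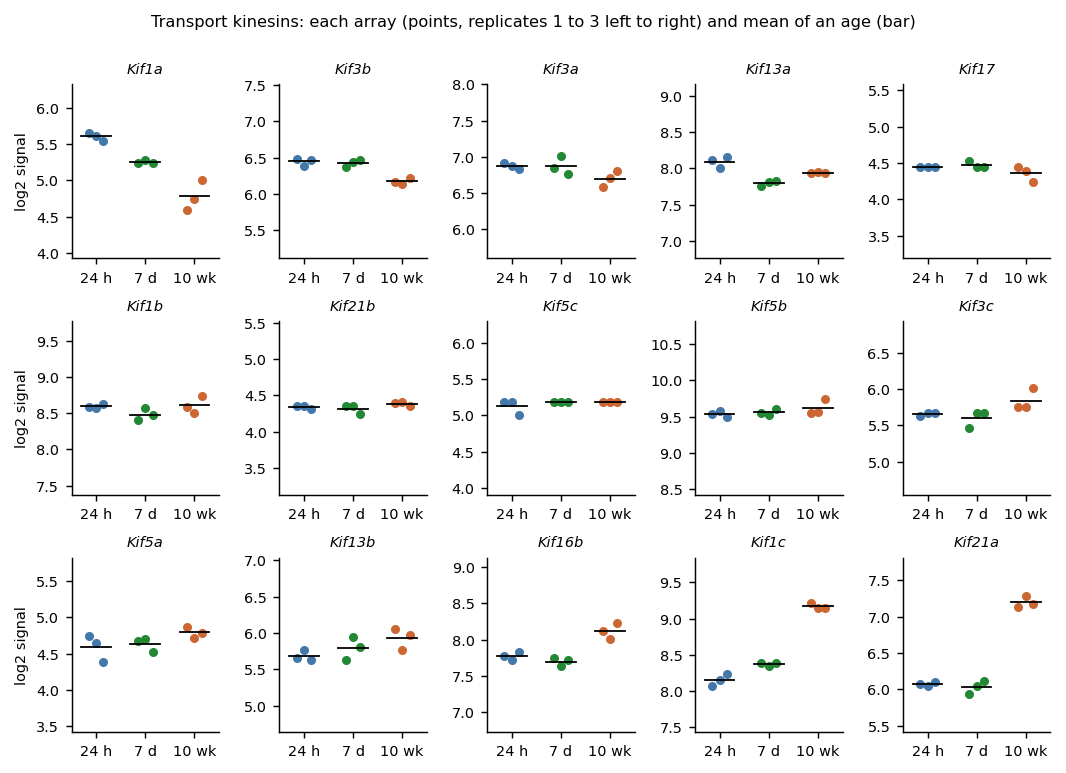
Log2 signal of the 15 transport kinesins on each array by age (points, replicates 1 to 3 from left to right; bars, mean of 3 arrays); the axes span the same range of 2.4 log2 units at different heights. Kif1a steps down, Kif16b, Kif1c and Kif21a are highest at 10 weeks, and most others overlap between ages.

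Genes that work with transport kinesins moved in part. Of 15 tested cargo adaptors 5 rose (33.3%) and 0 fell between 7 days and 10 weeks, beside 17.0% and 18.9% of all tested genes. Plekhm2, which couples lysosomes to kinesin-1, rose by 0.70, the vesicle adaptor gene Mapk8ip3 by 0.45, Fez2 by 0.39 and the mitochondrial adaptor gene Trak1 by 0.27; no adaptor was called in the first week. The kinesin light chain gene Klc1 fell by 0.31 in the second step after measuring 8.49 ± 0.06 and 8.67 ± 0.09, and Klc3 and Klc4 were not called. Kifc3, a minus-end directed kinesin outside the symbol rule, rose by 0.67 (adjusted p = 3.82e-04).

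Of 18 genes of dynein and dynactin, the motor that runs the opposite way, 3 rose (16.7%) and 7 fell (38.9%) in that step, beside 17.0% and 18.9% of all tested genes. The light chain genes Dynll1 and Dynll2 moved against each other, Dynll1 from 9.85 ± 0.04 to 8.77 ± 0.08 and Dynll2 from 9.12 ± 0.07 to 9.95 ± 0.11. Of 21 genes of microtubule associated proteins 7 rose and 7 fell, or 33.3% each way. Stmn1, which encodes a protein that takes up free tubulin, fell by 2.39 while Map1b, known from growing axons, differed by -1.76 and Mapt, which encodes tau, rose by 1.52. Among the Map7 genes, whose proteins recruit kinesin-1 to microtubules, Map7d3 fell by 1.14, and Map7 and Map7d1, named after their values were seen, rose by 0.48 and 0.37.

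No kinesin of cilia or Hedgehog signalling was called, at 0 of 6 in each comparison, beside 10.1%, 35.9% and 40.1% of all tested genes, and 53.7% were called in none. Kif6 passed from 24 hours to 10 weeks without 10-week replicate 3 (0.34, adjusted p = 0.0454). Other features of Kif6 and Kif7 differed by 0.03 and -0.06 over that span on all arrays. Kif7, which controls Gli factors at the tip of the cilium, measured 5.83 ± 0.05, 5.91 ± 0.08 and 5.92 ± 0.12 at the 3 ages, with an interval of -0.08 to 0.26 from 24 hours to 10 weeks. Kif24, which restrains cilium formation, measured 4.37 ± 0.15, 4.29 ± 0.09 and 4.18 ± 0.12. Kif6, Kif9, Kif19a and Kif27 differed by -0.08 to 0.21 in a step. The outermost limits of the 6 intervals over the whole span were -0.40 and 0.51, and 4 of the 6 genes stayed below the median signal. The 8 markers of motile cilia read 3.73 to 3.9 as a list mean, with 0 of 8 called in any step. Of 17 genes of intraflagellar transport, the cargo system of kinesin-2 in cilia, 8 fell (47.1%) and 1 rose (5.9%) between 7 days and 10 weeks, beside 18.9% and 17.0% of all tested genes. The largest differences were those of Ift46 (-0.67), Ift74 (-0.67), Ift20 (-0.58) and Wdr19 (-0.51), and the riser was Ift88 (0.28).

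Among the remaining kinesins Kif26b stood out. This member of the kinesin-11 group, known from the developing kidney and from Wnt5a signalling, measured 6.53, 6.62 and 6.49 at 24 hours, 5.98, 5.87 and 5.96 at 7 days and 5.19, 5.04 and 5.24 at 10 weeks. The 3 ages are separate, with falls of 0.61 ± 0.07 (adjusted p = 5.35e-04) and 0.78 ± 0.07 (adjusted p = 1.31e-05) in the 2 steps. By 7 days 43.9% of its whole fall had taken place, and the contrast between the steps did not pass (-0.17, adjusted p = 0.420). Another feature of the gene fell by 0.49 and 0.85. Its relative Kif26a measured 6.60 ± 0.04, 6.68 ± 0.04 and 6.42 ± 0.19, and its second-step call (-0.26, adjusted p = 0.0359) was lost when any 1 array other than 10-week replicate 1 was left out, with adjusted p of 0.0515 to 0.106, with both other scalings, and with only the 6 arrays compared.

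Kif2a, a microtubule depolymerizing motor of neurons and spindles, measured 7.31, 7.24 and 7.32, then 7.24, 7.22 and 7.25, then 6.83, 6.90 and 7.04. Its second-step fall of 0.31 (adjusted p = 0.00297; -0.32 and 0.0656 without 7-day replicates 2 and 3 together) put the adult arrays below all others. Kif2b, Kif12 and the pseudogene Kif4-ps were not called and stayed below the median signal, though Kif12 passed in the second step with centred arrays (0.22, adjusted p = 0.033). The brighter feature of Kif4-ps read 3.82 to 4.24 on all arrays while Kif4 fell. A dimmer feature of Kif4-ps read 3.28 to 4.0 and differed by -0.25 from 24 hours to 10 weeks. Whether probes of either gene also read the other was not tested.

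Relatives within a kinesin subfamily differed in their change from 24 hours to 10 weeks. In kinesin-4, Kif4 fell by 2.72 ± 0.12, Kif21a rose by 1.13 ± 0.07, and Kif7, Kif21b and Kif27 were not called. In kinesin-13, Kif2c fell by 2.7 ± 0.16 and Kif2a by 0.37 ± 0.06, and Kif2b and Kif24 were not called. In kinesin-3, Kif14 fell by 1.14 ± 0.11 and Kif1a by 0.83 ± 0.09, while Kif1c rose by 1.01 ± 0.06 and Kif16b by 0.35 ± 0.07. Its members Kif1b, Kif13a and Kif13b were not called. In kinesin-8, Kif18a and Kif18b fell and Kif19a, a motor of cilia, was not called. The 3 members of kinesin-6, Kif20a, Kif20b and Kif23, all fell, with differences of -3.72, -2.14 and -2.84. The differences between relatives were not tested.

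**Figure D5:**
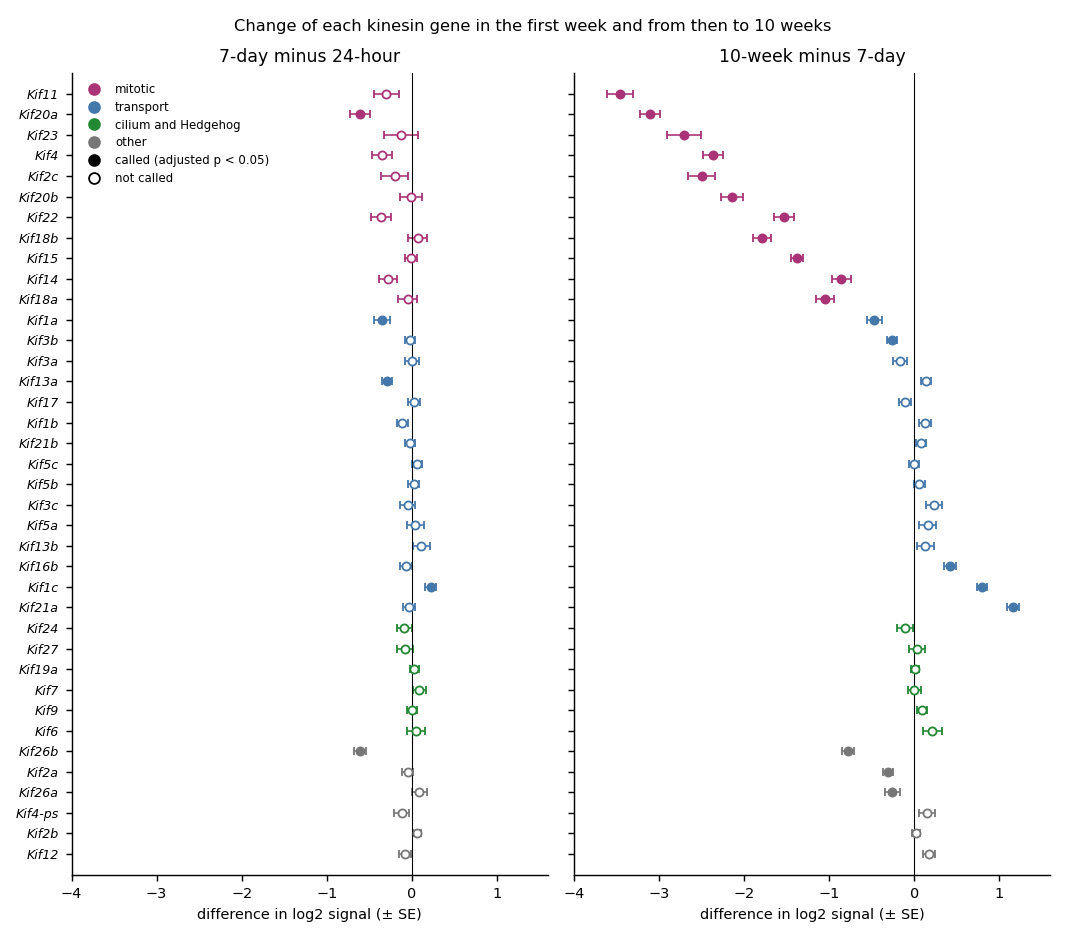
Difference in log2 signal (± SE from limma, 3 arrays per age) of the 38 kinesin genes between 24 hours and 7 days (left) and between 7 days and 10 weeks (right), grouped by role; filled points passed the test across all genes. The 11 mitotic kinesins lie between -3.46 and -0.86 on the right, and the transport kinesins between -0.47 and 1.16.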

How the data were processed

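Heart RNA of 9 arrays was analysed, 3 per age, grouped by the age in the sample titles. The deposited table holds log2 intensities of 35556 features; MAS5 5.0 is named in the submitters' processing notes. For the normalization between arrays and the genome build the sources used here give nothing. The values end at 13.583, above the 11.09 that a natural log of 16-bit values could reach. Array medians over all features of the table lay within 0.048 of each other, so no further scaling was applied. Over the tested genes, centring moved the median difference between 7 days and 10 weeks from 0.039 to 0.096. Detection calls are not part of the table. The number of arrays, 3 per age, limits the precision.

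Features with several symbols, or none in the platform table, were left out. A mean per age was fitted to 9 arrays and 19938 genes with limma 3.58.1 in R 4.3.3 (eBayes with an intensity trend), with Benjamini-Hochberg adjustment per comparison and a threshold of 0.05. In simulated data for these comparisons 73%, 78% and 73% of genes changed by 0.5 (log2) were recovered, and 97%, 99% and 97% of those changed by 1; 6.59%, 3.8% and 2.3% of the calls were false, the first above the threshold. Every member is accounted for: those called in some comparison with a difference of at least 0.5, and 10 fixed ones, by array, and up to 4 genes per other list; members, lists and motifs were chosen with earlier results of these data known. Kif13a and Kif16b are given by array beyond that rule, chosen after their values were seen. No set test was run. The contrast between the steps and the range around the start were added after the data were seen. Alternatives covered scaling, features per gene, dim genes, the variance prior, the arrays fitted, a replicate block and leaving out arrays. Tables were made with Python 3.11.15.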

Additional observations from a re-analysis of the deposited data

How the results depend on the processing

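The calls of the mitotic kinesins at 10 weeks held under every alternative run: 11 of 11 were lower, or 8 of 8 where only genes above the median signal were tested. Over 69 results for the kinesins called in some comparison and the 10 fixed ones, 18 settings gave 1230 values, of which 1168 kept their direction and side of the threshold, 35 lost the call, 7 gained it and 20 changed sign, none of these past the threshold. The cause was not tested.

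In the first week the count of kinesins called higher, which is that of Kif1c, was 0 with centred arrays, with the mean of a gene's features and with the replicate block, and 0 to 1 when 1 array was left out. The transport count was the same. The transport kinesins called lower numbered 1 with only genes above the median signal, where fewer genes are tested, 1 with the replicate block and 1 to 2 when 1 array was left out. The mitotic count of lower genes was 1 to 2 when 1 array was left out, and 2 without 10-week replicate 2. Of all genes 1149 to 2316 were called with 1 array left out. Without 7-day replicates 2 and 3 together, which leaves fewer samples, 516 genes were called in the first week, among them 0 kinesins higher and 1 lower (0 mitotic and 0 transport), and 4156 in the later step, with 0 transport kinesins lower. In the later step 7 kinesins, 6 of them transport kinesins, were called higher with centred arrays and 5, all transport kinesins, with quantile normalization. Of all 19938 tested genes 5247 and 3688 were called higher under these settings, against 3388 in the main fit. With only genes above the median signal 1 transport kinesin was called lower, beside 3471 of 9969 tested genes. Among the 38 kinesins the replicate block lost the first-week calls of Kif1a and Kif1c, gained that of Kif3c between 7 days and 10 weeks (0.23, adjusted p = 0.0474 in limma's test) and changed no other call. Same-numbered arrays had correlations of deviations between -0.174 and 0.133, so the numbers were not taken as pairs.

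The differences that changed sign were all close to 0. With 1 array left out, the first-week differences ranged from -0.05 to 0.05 for Kif15, from -0.14 to 0.08 for Kif18a, from -0.09 to 0.13 for Kif20b and from -0.21 to 0.0 for Kif23. They ranged from -0.08 to 0.01 for Kif21a, from -0.07 to 0.06 for Kif3a, from -0.05 to 0.01 for Kif3b and from 0.0 to 0.04 for Kif5b. Between 7 days and 10 weeks Kif5b ranged from 0.0 to 0.09, and from 24 hours to 10 weeks Kif1b ranged from -0.05 to 0.07. Without 7-day replicates 2 and 3 together the first-week difference was -0.04 for Kif18b and 0.09 for Kif20b, and with centred arrays that of Kif5b was -0.01.

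With 3 arrays per age and no detection calls, small changes of dim genes such as Kif5c, Kif9, Kif17 and Kif19a are not resolved by these data.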
